A study of Rattus norvegicus with 10 samples.

Results

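The interferon regulatory factors (IRFs) and signal transducers and activators of transcription (STATs) were examined in splenic M2 macrophages of WKY/NCrj rats. The members were the 9 genes Irf1, Irf2, Irf5, Irf7, Irf8, Irf9, Stat2, Stat3 and Stat5a, chosen by name from both families, and all 9 were among the 9003 genes of the expression table. RNA of sorted macrophages had been sequenced in 10 libraries of 4 groups. The control group (n = 2) came from rats in the physiological condition, and the GN group (n = 2) from rats with glomerulonephritis that received no cell treatment. The EVposi group (EV+, n = 3) and the EVnega group (EV-, n = 3) both came from rats with glomerulonephritis that had been injected with human adipose-derived mesenchymal stem cells (ASCs) labeled with the membrane dye DiD. EV+ macrophages carried the dye and EV- macrophages did not. The paper took the dye as a mark of extracellular vesicles (EVs) transferred from the ASCs. For a small number of leukocytes it proposes phagocytosis of ASCs instead, and a sort on the dye does not separate the 2. The EV- cells were also from treated animals, and no group came from treated rats without nephritis. Nephritis had been induced with a monoclonal antibody to the glomerular basement membrane, and the cells had been isolated with a CD11b/c antibody before sorting. The methods describe the replicates as biological without saying which animals gave which library. They give an age range in weeks for the female rats of the nephritis model, and the labels give no age.

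STATs wait in the cytoplasm until a cytokine or interferon receptor is engaged, when Janus kinases attached to the receptor phosphorylate them and they enter the nucleus as dimers. STAT2 joins IRF9 in a complex after type I interferon, and this complex binds a sequence called the interferon-stimulated response element (ISRE). STAT dimers bind a gamma-activated sequence (GAS). IRF7 and IRF5 lie downstream of sensors of nucleic acids and are activated by phosphorylation, so a transcript level does not show the activity of any of these proteins. In macrophages IRF8 is a lineage factor, STAT3 relays interleukin 10 and STAT5A relays colony-stimulating factors.

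Promoter windows were taken for the members from RefSeq on the rat assembly GRCr8, each with 250 bases before and 50 after the annotated start. Of the 9 members 8 matched an entry, and Irf2 had none. The windows of Irf7, Irf1 and Irf8 are shown, because these were the members whose GN values all lay under both control values. GN and control did not overlap, in either direction, for 43.9% of all genes, so this trait only served to choose the windows. They are written 5′ to 3′ on the strand of the gene, and capitals mark a match to one of the motifs searched.
Irf7 (chr1:205799974-205800273, minus strand): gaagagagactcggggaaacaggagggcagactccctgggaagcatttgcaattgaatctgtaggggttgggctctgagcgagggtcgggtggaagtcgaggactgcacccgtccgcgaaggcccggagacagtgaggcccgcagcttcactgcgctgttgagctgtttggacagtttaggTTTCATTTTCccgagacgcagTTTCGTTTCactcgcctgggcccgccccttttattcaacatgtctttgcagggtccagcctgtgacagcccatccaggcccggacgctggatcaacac
Irf1 (chr10:38417685-38417984, plus strand): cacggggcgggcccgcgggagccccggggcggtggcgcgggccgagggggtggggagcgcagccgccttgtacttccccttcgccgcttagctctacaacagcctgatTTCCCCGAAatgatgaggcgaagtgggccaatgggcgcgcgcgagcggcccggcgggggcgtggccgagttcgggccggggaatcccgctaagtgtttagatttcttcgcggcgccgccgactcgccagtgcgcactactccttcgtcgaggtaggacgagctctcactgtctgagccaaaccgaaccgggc
Irf8 (chr19:65699034-65699333, plus strand): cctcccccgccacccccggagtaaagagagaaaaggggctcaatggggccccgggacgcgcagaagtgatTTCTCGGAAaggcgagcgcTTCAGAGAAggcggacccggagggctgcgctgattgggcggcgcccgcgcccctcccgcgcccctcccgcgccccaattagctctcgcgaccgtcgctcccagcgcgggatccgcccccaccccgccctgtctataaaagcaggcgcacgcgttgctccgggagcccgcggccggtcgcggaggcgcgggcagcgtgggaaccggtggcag
In the Irf7 window the capitals are an ISRE match (GAAANNGAAA, here as its reverse complement) at positions -69 to -60 from the start and a closer-spaced repeat (GAAANGAAA, also as its reverse complement) at -48 to -40. In the Irf1 window they are a GAS match (TTCNNNGAA, which is its own reverse complement) at -142 to -134. The Irf8 window had a pair of GAS matches, at -180 to -172 and at -161 to -153. Irf9 also had a GAS match, at -99 to -91, and the windows of Irf5, Stat2, Stat3 and Stat5a had no match to any of these motifs. On both strands, the ISRE letters were in 3.92% of all 33469 promoter windows of the same length and in 1 of the 8 members. The GAAANGAAA letters were in 3.5% of all windows and 1 of 8 members, and this spacing was added to the search after the sequences had been seen. The GAS letters were in 8.87% of all windows and 3 of 8 members. A match of letters is a description and shows no binding.

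**Figure D1:**
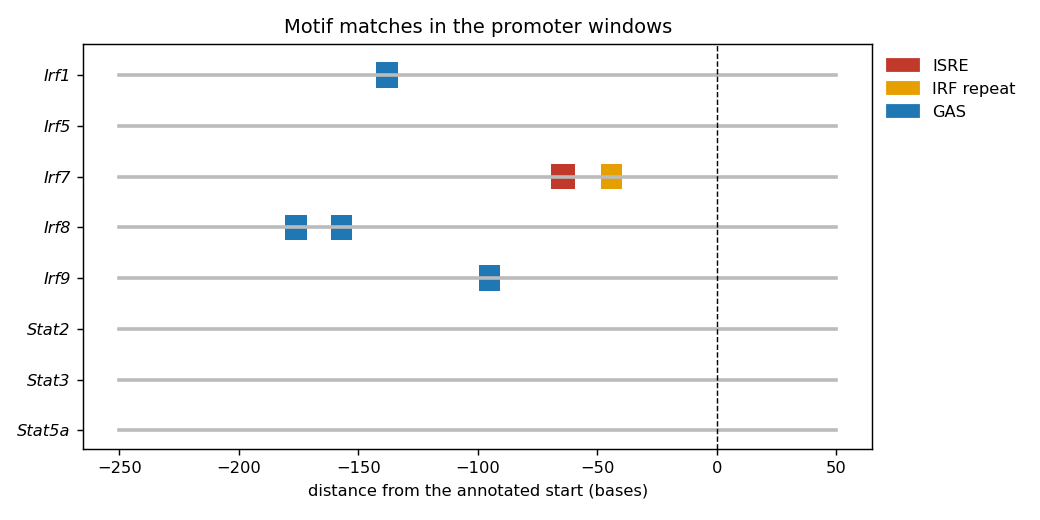
Position of motif matches in the promoter windows of the 8 members with an entry, as distance from the annotated start in bases (dashed line at 0). Red marks the ISRE letters, orange the closer-spaced IRF repeat and blue the GAS letters; Irf7 alone among the 8 had the red and orange matches, and Irf1, Irf8 and Irf9 had blue ones.

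The libraries held between 19270515 and 26617093 reads on the genes of the table, and every member had at least 1846 reads in each library. Counting error was thus small beside the level of a member. It was not always small beside the spread within a group, as for Irf5 in GN (498 ± 5.03 CPM, SD, n = 2). Values are read counts scaled to library size by the TMM method (CPM), and differences are on the log2(CPM + 1) scale. CPM is not divided by transcript length, so levels are compared between libraries and not between genes. Of the 15 macrophage markers 13 were in the table. Their summed level was 27135 and 27731 CPM in control and between 30691 and 32895 CPM in the GN, EV+ and EV- libraries. Lyz2 alone was between 15325 and 16114 CPM in control and between 17459 and 20176 CPM in the other groups. The part of this shift in the results was not tested. Csf1r, the receptor for macrophage colony-stimulating factor, was between 5800 and 8155 CPM. Markers often used for M2 macrophages were almost absent, with Cd163 and Mrc1 each between 0 and 1.81 CPM, so the cells are called M2 here only as labelled. Among these markers Itgam rose by 0.57 and Fcgr3a fell by 0.55 in GN against control, and their part in the results given here was not tested. The 11 of 15 natural killer and T cell markers in the table summed to between 222 and 367 CPM in 9 libraries and to 1085 CPM in EV- replicate 1, with Cd8a alone between 199 and 333 CPM. The other 10 summed to between 19.3 and 41.3 CPM in the control, GN and EV+ libraries and to 751, 106 and 55.3 CPM in EV- replicates 1, 2 and 3, so all 3 EV- libraries stood apart. For 7 of the 11 markers all EV- values were above every other library, among them Prf1 (perforin, 24.5 CPM or more in EV- and up to 18.4 elsewhere), and Prf1 rose in EV- against control (limma adjusted p = 0.0980). Against GN the 11 were all higher in EV-, by a median of 2.24 and with 0 calls. The part of these cells in the EV- results was not tested. The reads of RNA from a sorted pool cannot tell fewer cells of a type apart from less RNA per cell.

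Irf7, the factor that amplifies type I interferon production, had the widest spread of the 9 members, with its highest library 2.14 times its lowest. It measured 2072 and 1621 CPM in the control libraries and 1281 and 968 CPM in the GN libraries. It measured 1664, 1016 and 1274 CPM in EV+ and 1461, 1003 and 1152 CPM in EV- macrophages. Both GN values and all 3 EV- values lay under both control values, while EV+ replicate 1 lay between them. The mean was 1847 ± 319 CPM for control (SD, n = 2), 1124 ± 221 for GN (n = 2), 1318 ± 326 for EV+ (n = 3) and 1205 ± 234 for EV- (n = 3). The difference of GN from control was -0.72 (SE 0.210, 95% confidence interval -1.17 to -0.27), or 0.609 times the control mean. This did not pass the threshold of a limma FDR (Benjamini-Hochberg adjusted p over all 9003 genes) under 0.1, with adjusted p = 0.159.

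The Irf7 call depended on how the spread between libraries was modeled. Against control, edgeR's quasi-likelihood test on the recovered reads gave adjusted p = 0.195 for GN and DESeq2 gave 0.283, while edgeR's likelihood-ratio test gave 0.0595. In each of the 4 groups replicate 1 was above replicate 2. EV+ and EV- libraries of the same number deviated together over all genes (r = 0.203, 0.295 and 0.122), a pairing that was inferred and is not stated by the study. When the replicate number was fitted as a block inside these libraries the limma adjusted p was 0.00209 for GN, 0.00940 for EV+ and 0.00253 for EV- against control, with the same log2 differences. In that fit the deviations shared by numbered EV libraries no longer count as error, also in comparisons with groups that were not paired. Leaving out GN replicate 2 gave the smallest difference of GN from control, -0.52, with adjusted p = 0.760, and leaving out control replicate 1 gave -0.54, with adjusted p = 0.619. Leaving out EV+ replicate 1 or EV+ replicate 2 brought the adjusted p to 0.0789 and 0.0800. Over 20 alternatives the adjusted p ranged from 0.00101 to 0.760 and 6 passed, and the difference was below 0 in all of them.

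**Figure D2:**
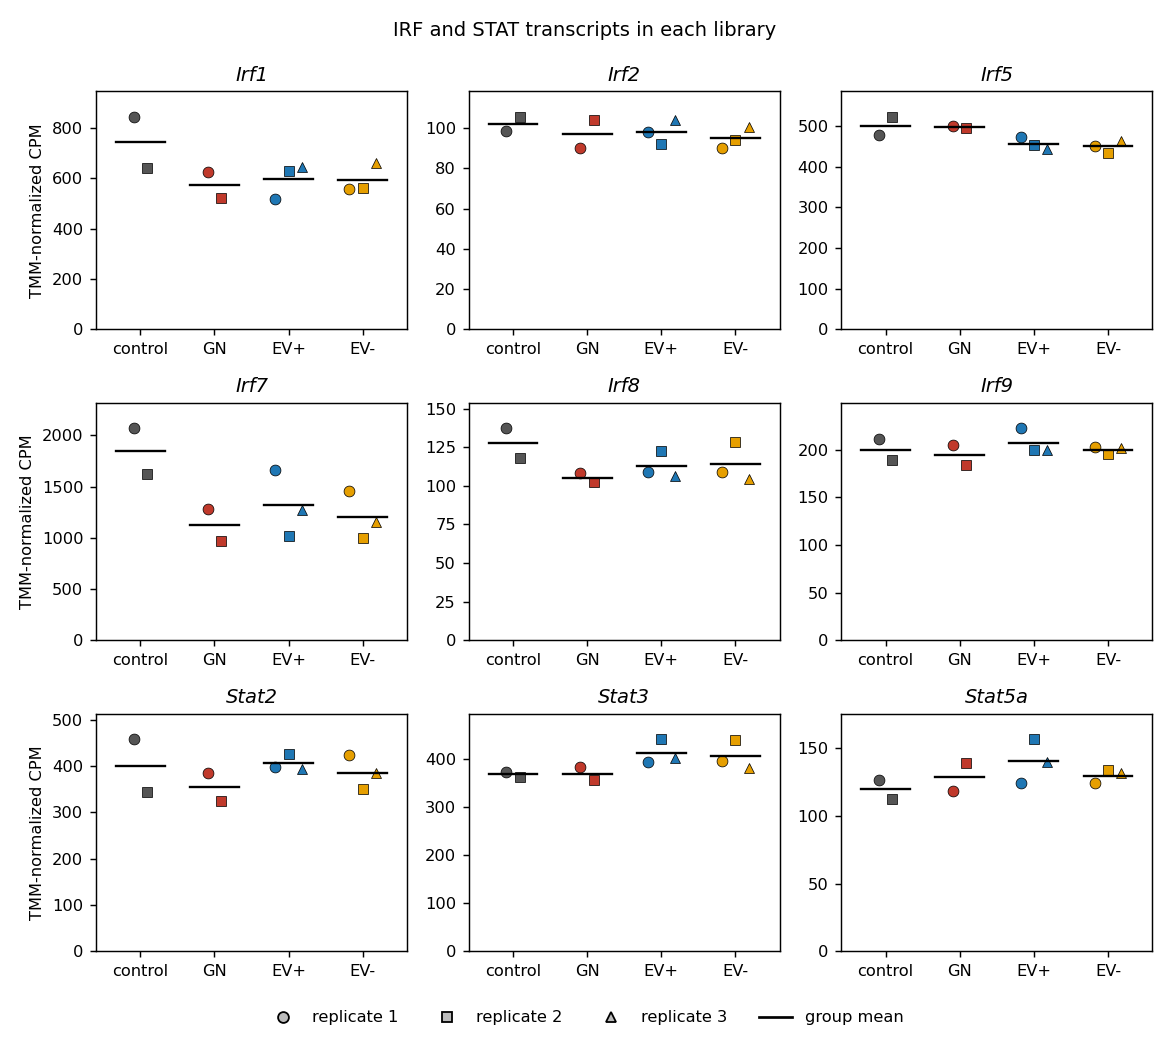
TMM-normalized CPM of each of the 9 members (vertical axis from 0, one panel per gene) in the 10 libraries by group. Circles, squares and triangles are replicates 1, 2 and 3, and the black line is the group mean; the Irf7 values are between 968 and 2072 CPM with both control libraries above both GN libraries.

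Irf9 and Stat2 encode partners in the complex that forms after type I interferon. Stat2 measured 458 and 343 CPM in control, 384 and 324 in GN, 398, 426 and 393 in EV+ and 423, 350 and 384 in EV- macrophages. The control libraries alone spanned more than the other groups, and control and GN overlapped, with a difference of -0.17 (limma adjusted p = 0.715). All 3 EV+ values were above both GN values, with a difference of 0.20 (SE 0.116, 95% confidence interval -0.05 to 0.45, limma adjusted p = 0.820), which was 0.078 without GN replicate 2. Irf9 was the steadier partner, at 211 and 189 CPM in control, 204 and 184 in GN, 223, 200 and 199 in EV+ and 202, 196 and 202 in EV- macrophages. Its groups overlapped in every comparison, and its differences were between -0.04 and 0.09.

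Irf1, an activator induced by interferon-γ, measured 845 and 642 CPM in control, 627 and 524 in GN, 517, 629 and 644 in EV+ and 558, 561 and 663 in EV- macrophages. Both GN values lay under both control values, and the highest EV+ and EV- values were just above the lower control value. The difference of GN from control was -0.36 (SE 0.141, 95% confidence interval -0.66 to -0.06, limma adjusted p = 0.354). Without control replicate 1 it was -0.16. EV+ and EV- differed from control by -0.31 each (-0.11 and -0.12 without control replicate 1), with limma adjusted p = 0.274 and 0.307, and with the block within EV libraries by adjusted p = 0.0902 and 0.0987. Irf2, which competes with IRF1 for its sites, was between 90.2 and 106 CPM in all 10 libraries, and its groups overlapped in every comparison.

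Irf5, a factor downstream of Toll-like receptors that is associated with inflammatory macrophages, measured 478 and 523 CPM in control, 502 and 495 in GN, 474, 453 and 443 in EV+ and 451, 435 and 465 in EV- macrophages. All EV+ and EV- values lay under both GN values and both control values, while GN and control overlapped. The difference from GN was -0.13 in EV+ (SE 0.070, 95% confidence interval -0.28 to 0.02, limma adjusted p = 0.795) and -0.15 in EV- (SE 0.070, interval -0.30 to 0.00398, adjusted p = 0.647). Against control it was -0.13 in EV+ (limma adjusted p = 0.413) and -0.15 in EV- (adjusted p = 0.379). Without control replicate 2 these were -0.0649 and -0.0849. Both EV groups were compared with the same 2 GN and the same 2 control libraries, so these are not independent observations.

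Irf8, the myeloid lineage factor, measured 138 and 118 CPM in control, 108 and 103 in GN, 109, 123 and 107 in EV+ and 109, 128 and 104 in EV- macrophages. The GN values were under both control values by -0.27 (SE 0.117, 95% confidence interval -0.52 to -0.02, limma adjusted p = 0.416), or by -0.16 without control replicate 1, and both EV groups overlapped with control and with GN. In both EV groups replicate 2 was the highest.

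Stat3, which relays interleukin 10 and interleukin 6 signals, measured 372 and 363 CPM in control, 382 and 355 in GN, 393, 440 and 401 in EV+ and 394, 439 and 381 in EV- macrophages. Control and GN differed by 0.00486. All EV+ values were above both GN values, by 0.16 (SE 0.081, 95% confidence interval -0.02 to 0.33, limma adjusted p = 0.754), and EV- replicate 3 lay just under the higher GN value. Against control, in which both libraries were under all 6 EV libraries, the differences were 0.16 in EV+ (limma adjusted p = 0.373) and 0.14 in EV- (adjusted p = 0.526). Stat5a, which acts downstream of granulocyte-macrophage colony-stimulating factor, measured 126 and 113 CPM in control, 118 and 139 in GN, 124, 157 and 140 in EV+ and 124, 134 and 131 in EV- macrophages. Its groups overlapped in every comparison, and the widest difference was 0.22 for EV+ against control (95% confidence interval -0.00235 to 0.45, limma adjusted p = 0.341).

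Among the 4 groups in 1 test, 0 of the 9 members passed a limma FDR of 0.1, against 2.57% of all genes. For GN against control, which asks what nephritis alone was accompanied by, 0 members passed, against 1.75% of all genes. At an unadjusted p under 0.05 there were 3 members (Irf1, Irf7 and Irf8), against 10.4% of all genes, and the 3 had groups that did not overlap, against 43.9% of all genes. With 2 libraries a group, values that do not overlap are thus common in this table. The members' median difference was -0.07, with 7 below 0 and 2 above, and over all genes the median was -0.000138, with 49.85% above 0. By the other tools, edgeR's quasi-likelihood test and DESeq2 called 0 members and edgeR's likelihood-ratio test called 1, Irf7.

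For EV+ against GN, which sets dye-positive macrophages of treated rats against untreated nephritis, 0 members passed, against 0.122% of all genes, and 0 had an unadjusted p under 0.05, against 7.13%. The groups of 3 members did not overlap (Irf5, Stat2 and Stat3), against 23.0% of all genes. The median difference of the 9 members was 0.09, with 8 above 0, and over all genes it was -0.0111, with 47.2% above 0. For EV- against GN, 0 members passed, against 0.378% of all genes, 0 had an unadjusted p under 0.05, against 7.85%, and 1 had groups that did not overlap (Irf5), against 25.4%. The median was 0.05, with 7 above 0, and over all genes it was 0.000606, with 50.1% above 0.

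EV+ and EV- macrophages shared the condition of the treated animals and were separated by the dye, and the natural killer and T cell markers also set them apart, with EV+ below EV- for 11 of 11, a median difference of -2.07 and 0 calls. Of the 9 members 0 passed the FDR, against 0.0222% of all genes, 0 had an unadjusted p under 0.05, against 4.57%, and 0 had groups that did not overlap, against 8.91%. The differences were between -0.01 for Irf8 and 0.12 for Irf7, with a limma adjusted p of 0.9997 for each member. They were above 0 for 8 of the 9 members, with a median of 0.05, against 47.3% and -0.00767 over all genes. The 95% confidence intervals were narrowest for Irf5 (-0.11 to 0.15) and widest for Irf7 (-0.25 to 0.48), and differences of these sizes could not be told from 0 here. With the block within EV libraries, and by edgeR and DESeq2, 0 members were called.

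For EV+ against control 0 members passed, against 3.63% of all genes. Unadjusted p was under 0.05 for 2 members (Irf1 and Irf7), against 15.0%, and 2 did not overlap (Irf5 and Stat3), against 30.5%. For EV- against control 0 passed, against 2.84% of all genes, 3 had an unadjusted p under 0.05 (Irf1, Irf5 and Irf7), against 13.1%, and 3 did not overlap (Irf5, Irf7 and Stat3), against 29.1%. Irf7 differed from control by -0.50 in EV+ (SE 0.191, limma adjusted p = 0.230, and -0.33 without control replicate 1) and by -0.62 in EV- macrophages (SE 0.191, adjusted p = 0.149), beside -0.72 in GN. From GN it differed by 0.21 in EV+ (95% confidence interval -0.20 to 0.62, and from 0.012 without GN replicate 2 to 0.42 without GN replicate 1) and 0.10 in EV- (interval -0.31 to 0.51). GN, EV+ and EV- were set against the same 2 control libraries, of which replicate 1 was the highest of all 10 libraries for Irf1, Irf7, Irf8 and Stat2.

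**Figure D3:**
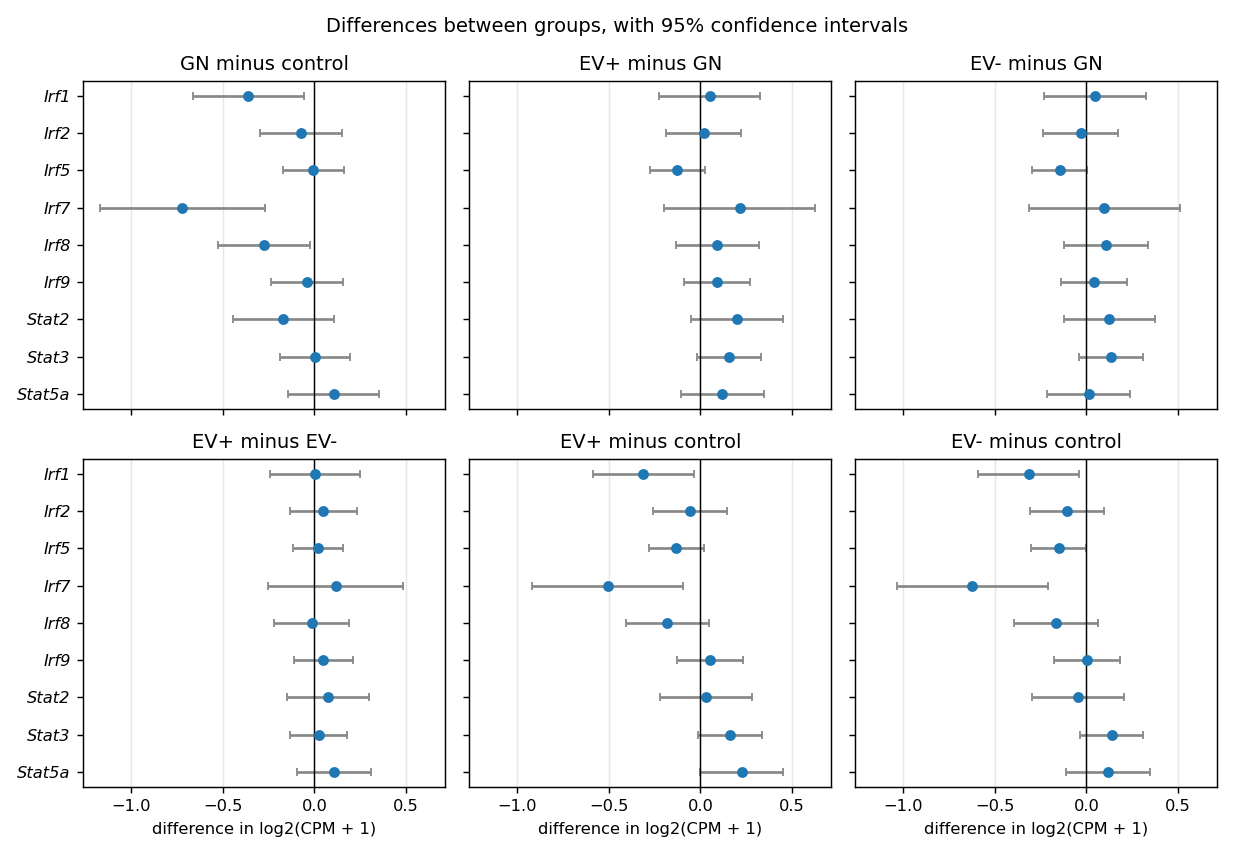
Difference in log2(CPM + 1) between groups for the 9 members in 6 comparisons (points), with 95% confidence intervals from limma (bars) and a line at 0. The Irf7 point for GN minus control is at -0.72 with an interval from -1.17 to -0.27, and all 9 intervals for EV+ minus EV- include 0.

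The other genes of the pathway were taken from lists and counted in the same fit. Of the other IRF and STAT genes all 7 listed were in the table, and 1 passed, Irf3, which drives the first wave of interferon β. It averaged 64.8 ± 8.90 CPM for control (SD, n = 2), 49.5 ± 3.30 for GN (n = 2), 49.1 ± 1.69 for EV+ (n = 3) and 52.1 ± 3.31 for EV- (n = 3), and it fell by 0.39 in EV+ against control (limma adjusted p = 0.0927). The call was lost when any 1 of the 10 libraries was left out, control replicate 1 giving the highest adjusted p of 0.435 and a difference of -0.25. Of the IRF cofactors 5 of 7 listed were in the table and 0 passed in any comparison. The highest mean CPM, not corrected for length, was that of Spi1, whose product PU.1 is the partner of IRF8 in myeloid cells, at 1008 ± 0.204 CPM for control (n = 2) and 1004 ± 7.45 for GN (n = 2).

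At the surface, 15 of the 17 listed interferon and cytokine receptor genes were in the table. Against GN 1 of the 15 passed the FDR in each EV group, against 0.122% of all genes in EV+ and 0.378% in EV-. This was Csf2rb, which encodes the shared signaling chain of the receptors for granulocyte-macrophage colony-stimulating factor, interleukin 3 and interleukin 5. The chain sits upstream of STAT5. Csf2rb averaged 122 ± 28.0 CPM for control (n = 2), 139 ± 3.82 for GN (n = 2), 240 ± 15.3 for EV+ (n = 3) and 235 ± 13.8 for EV- (n = 3). The rise over GN was 0.79 in EV+ (SE 0.114, limma adjusted p = 0.0156) and 0.76 in EV- (SE 0.114, adjusted p = 0.0107). These calls were lost without the intensity trend, with all libraries kept, and without GN replicate 1 or GN replicate 2, which leaves 1 GN library. With a library left out the differences stayed between 0.74 and 0.83 in EV+ and between 0.72 and 0.80 in EV-. The calls of Csf2rb against control, 0.98 and 0.96, held in all 20 alternatives. Beside it Stat5a differed from GN by 0.12 (0.00347 without GN replicate 1) and 0.01, as given above without a call. Against control 3 receptor genes passed as higher in both EV groups, against 3.63% of all genes called in EV+ and 2.84% in EV-. The others were Csf3r, the granulocyte colony-stimulating factor receptor, by 0.37 and 0.33, and Il21r, the interleukin 21 receptor, by 0.47 and 0.38. Csf3r is also a neutrophil marker, and the other 6 neutrophil markers in the table summed to 21.9 and 27.1 CPM in control, 24.8 and 25.4 in GN, between 22.9 and 37.2 in EV+ and between 21.4 and 32.1 in EV- libraries. All 4 of these calls were lost without control replicate 2, with adjusted p between 0.193 and 0.661 and a difference of Il21r in EV- of 0.23. Those of Csf3r were also lost without control replicate 1 and, for EV-, without EV- replicate 1 or 2. Those of Il21r were also lost without EV+ replicate 3 and, for EV-, without GN replicate 1 or 2 or EV- replicate 1 or 3. With all libraries kept, the 4 calls were lost without the intensity trend, and all but that of Csf3r in EV+ with only the groups compared. The Il21r call in EV- was also lost with edgeR's quasi-likelihood test and with the replicate block over all libraries.

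All 4 Janus kinases were in the table and 0 of the 4 passed in any comparison, with Jak1, which had the highest mean CPM (not corrected for length), at 373 ± 17.8 CPM for control (n = 2), 393 ± 24.3 for GN (n = 2), 448 ± 33.5 for EV+ (n = 3) and 413 ± 24.4 for EV- (n = 3). Of the JAK-STAT inhibitors 16 of 17 listed were in the table and 1 passed. This was Pias3, which encodes an inhibitor of STAT3, at 24.3 ± 3.08 CPM in control (n = 2) and 35.0 ± 2.52 in EV+ (n = 3), a rise of 0.51 (limma adjusted p = 0.0853). Leaving out control replicate 2 raised its adjusted p to 0.546. The call held in 10 of 20 alternatives, and of the 10 that left out a library it held without EV- replicate 2 or 3.

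The sensors, adaptors and kinases upstream of the IRFs were the group with calls for GN against control, where 3 of the 15 in the table (20 listed) passed, against 1.75% of all genes. Ikbke, a kinase that phosphorylates IRF3 and IRF7, rose by 0.72 (SE 0.134, limma adjusted p = 0.0179), from 70.3 ± 14.4 CPM for control (n = 2) to 116 ± 8.18 for GN (n = 2), and was 110 ± 12.9 for EV+ (n = 3) and 111 ± 4.54 for EV- (n = 3). Tmem173, which encodes the DNA-sensing adaptor STING, rose by 0.97 (adjusted p = 0.0610) from the low level of 2.78 ± 0.373 CPM to 6.41 ± 0.700 in GN. Tlr9, the receptor for unmethylated DNA, fell by 0.79 (adjusted p = 0.0452) from 46.7 ± 4.37 to 26.6 ± 1.82 CPM. The 3 genes passed in the same direction in EV+ and in EV- against the same controls. For GN against control the calls of all 3 were lost without control replicate 2, GN replicate 1 or GN replicate 2, with adjusted p up to 0.366, and those of Tlr9 and Tmem173 also without control replicate 1. Against control, with each of the 10 libraries left out in turn, Tlr9 kept its call in 3 fits for EV+ and 6 for EV-, Tmem173 in 10 for EV+ and 3 for EV-, and Ikbke in 9 for each. Control replicate 2 was the library without which the adjusted p was highest for all of these. With all libraries kept, some calls against control also depended on the model. Without the intensity trend, those of Tlr9 in GN, EV+ and EV- and of Ikbke in GN and EV- were lost. With only the groups compared, those of Tmem173 in GN and EV- and of Tlr9 in EV+ were lost. The Tlr9 call in EV+ was also lost with the replicate block over all libraries. Of 10 B cell markers 6 were in the table and summed to 394 and 458 CPM in control and 320 and 396 in GN, and 1 of the 6, Cd79b, fell by 0.85 in GN against control (adjusted p = 0.0331). The part of B cells in the Tlr9 result was not tested.

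**Figure D4:**
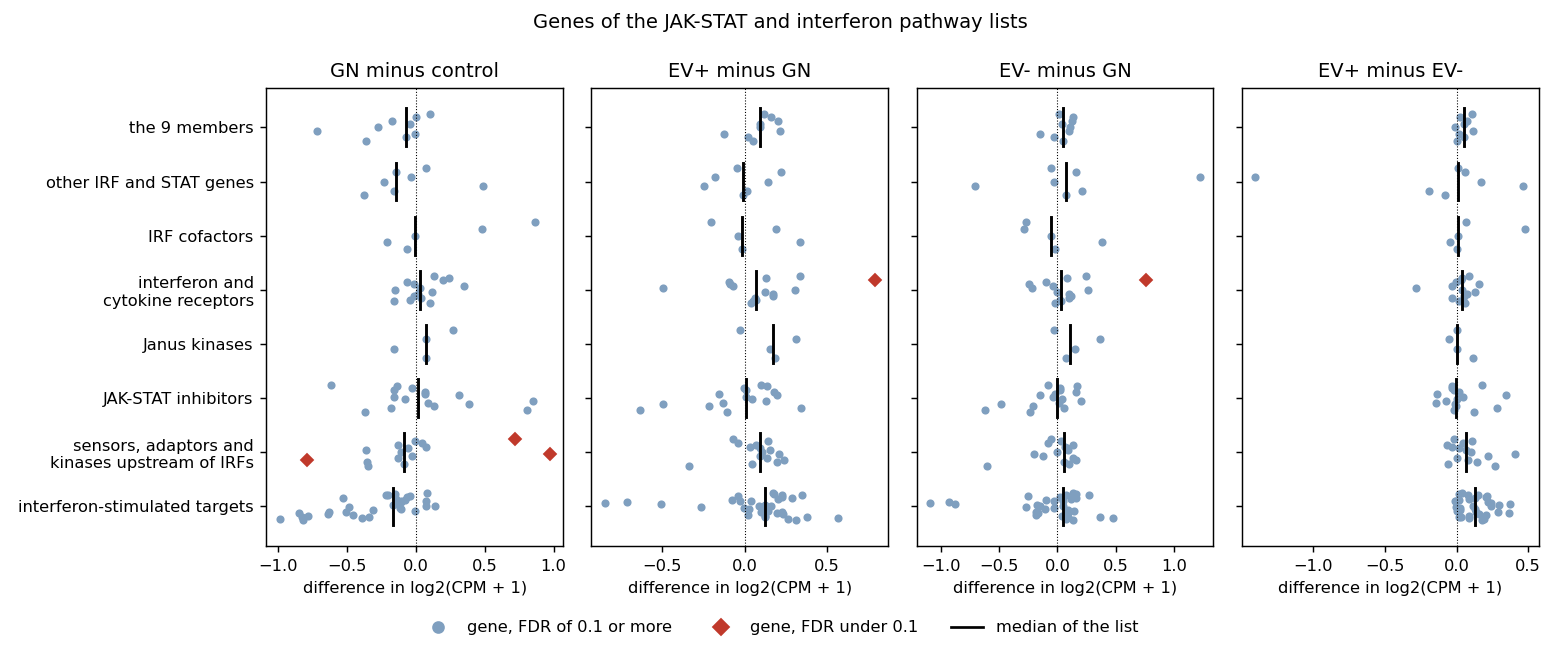
Difference in log2(CPM + 1) of each gene in the members' row and 7 pathway lists, in 4 comparisons. Dots are genes with an FDR of 0.1 or more, red diamonds genes under it and black lines list medians; diamonds are at -0.79 (Tlr9), 0.72 (Ikbke) and 0.97 (Tmem173) for GN minus control and at 0.79 and 0.76 (Csf2rb) for the EV groups minus GN.

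Genes induced by interferon through these factors were measured by 33 of 36 listed targets. For GN against control 0 of the 33 passed by limma, 29 were below 0 and 4 above, and their median difference was -0.16. For EV+ against GN 25 of 33 were above 0 with a median of 0.13, for EV- against GN 19 with a median of 0.05, and for EV+ against EV- 30 with a median of 0.13, with 0 calls in each. Over all genes the share above 0 was 49.85% for GN against control and 47.3% for EV+ against EV-. It was 47.2% for EV+ and 50.1% for EV- against GN, and the all-gene medians of these comparisons were between -0.0111 and 0.000606. Against control 4 targets fell in EV- macrophages, against 2.84% of all genes called. They were Mx2, an antiviral GTPase, by 0.92, Oas2, a sensor of double-stranded RNA, by 1.01, Rsad2, the antiviral enzyme viperin, by 0.82, and Cxcl10, a chemokine that draws T cells, by 1.23, with limma adjusted p between 0.0357 and 0.0937. In EV+ macrophages Cxcl10 alone passed, against 3.63% of all genes called, by -0.99 (adjusted p = 0.0832), from 26.6 ± 7.84 CPM for control (n = 2) to 13.1 ± 4.55 (n = 3), beside 10.7 ± 2.70 for EV- (n = 3) and 23.5 ± 0.269 for GN (n = 2). Without control replicate 1 the difference of Rsad2 was -0.40. With all libraries kept, every call of these targets, that of Cxcl10 in EV- included, was lost without the intensity trend. Those of Oas2, Rsad2 and, in EV+, Cxcl10 were also lost with only the groups compared. The call of Mx2 was also lost with edgeR's quasi-likelihood test and with DESeq2. Each of these calls was lost without control replicate 1, with adjusted p between 0.286 and 0.472, and the direction was kept in all alternatives. The call of Cxcl10 in EV- held without any of the other 9 libraries, and each of the others was also lost without at least 1 of the compared EV libraries.

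The mean log2(CPM + 1) of the 33 targets in each library is given beside Irf7 as a description. It was 6.92 and 6.54 in control, 6.49 and 6.37 in GN, 6.63, 6.34 and 6.54 in EV+ and 6.55, 6.17 and 6.39 in EV- libraries. In every group replicate 1 was above replicate 2, as it was for Irf7, and in both EV groups replicate 3 lay between them. The corresponding mean over the 9 members, most of which varied less, was 8.39 and 8.22 in control, 8.18 and 8.09 in GN, between 8.22 and 8.23 in EV+ and between 8.15 and 8.19 in EV-. Over all genes replicate 1 exceeded replicate 2 for between 48.9% and 51.3% of genes in each group. These are descriptions of 10 libraries that share their depth and scaling within each column.

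**Figure D5:**
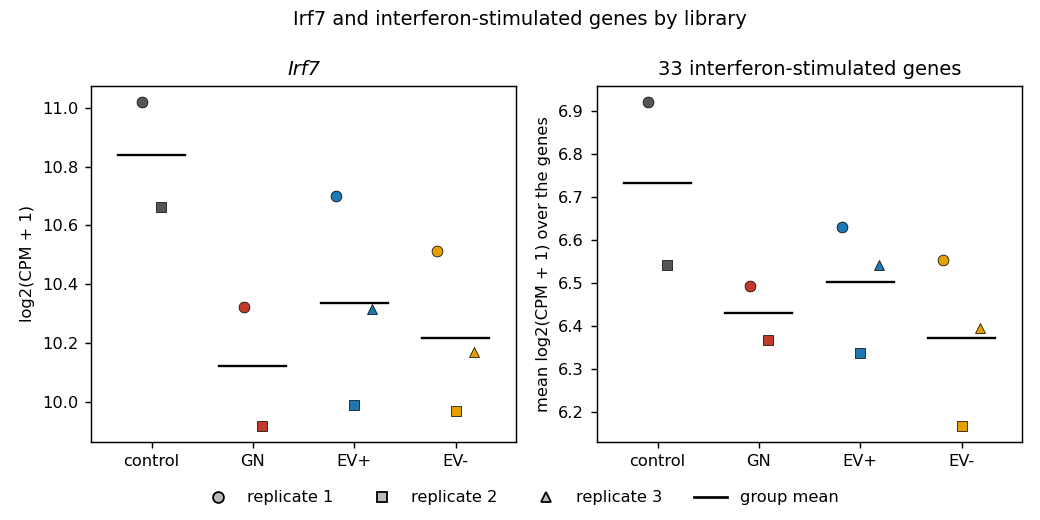
Irf7 (left, log2(CPM + 1)) and the mean log2(CPM + 1) of 33 interferon-stimulated genes (right) in each library by group, with black lines at the group means; neither axis starts at 0. In each group replicate 1 (circle) is above replicate 2 (square) in both panels, and control replicate 1 is the highest library, at 6.92 for the targets.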

How the data were processed

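RNA-seq libraries had been made with SMART-Seq v4 and Nextera XT kits, which keep no strand and carry no molecular identifiers, and sequenced as paired ends. Per the methods and the submitters' processing notes, reads were aligned to rn6 with STAR (2.5.3) and counted on RefSeq genes with HTSeq (0.6.0). The table deposited by the authors holds a normalized signal, TMM-normalized CPM made with edgeR after genes with a maximum under 1 CPM had been removed. Each value was a whole multiple of the worth of 1 read in its library (0.0377 to 0.0510 CPM), so reads were recovered for 100% of values within 0.01 read, and TMM values recomputed from them differed by at most 4e-05 CPM. Of the gene symbols 18 had become dates and could not be named. A floor of 3 reads is 0.113 to 0.153 CPM and covers counting error only. Replicates differed by a chi-square of 13.35 to 44.97 per degree of freedom, so none was a copy of another.

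The main test was limma (3.58.1, R 4.3.3) on log2(CPM + 1) with an intensity trend, fitted to the 4 groups of all 10 libraries with 6 residual degrees of freedom. Genes were called at a Benjamini-Hochberg FDR under 0.1 over 9003 genes. A p-value measures only the spread between these libraries. The procedure was tested on simulated data. Alternatives were edgeR (4.0.16) quasi-likelihood and likelihood-ratio tests and DESeq2 (1.42.0) on the recovered reads, RLE size factors, a pseudocount of 0.1 CPM, at least 1 CPM in at least 2 libraries, no intensity trend, an FDR under 0.05, the replicate number as a block, only the groups compared, and each library left out. The block within EV+ and EV- libraries only was added after the data were seen.

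Neither the labels nor the methods state a pairing. Deviations from group means over all genes correlated between same-numbered EV+ and EV- libraries (r = 0.203, 0.295 and 0.122), which was taken as pairing, and less between control and GN (r = 0.0878), which was not. Libraries of different numbers reached r = 0.141 (control replicate 1 with EV+ replicate 2), above the value of EV replicate 3. The pairing is thus an inference, weakest for replicate 3, and results of the block within EV libraries rest on it.

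All 9 members are named. List genes are named if they passed in a comparison of 2 groups, at most 4 a list and comparison, and where a list had none, at most 2 by mean CPM. Genes most like a member in pattern were to be named for members that passed, and there were 0 such members. The members and lists were chosen with earlier results of these data known. Promoter windows came from RefSeq (GRCr8), an assembly other than that of the counts, and were used for sequence only. All columns of the table were used. Some listed genes are not reported here.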

Additional observations from a re-analysis of the deposited data

How the results depend on the processing

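The counts of members that passed were 0 in every comparison and became 1 (Irf7) with edgeR's likelihood-ratio test among the 4 groups, for GN against control and for EV- against control, 1 with only the groups compared for GN and for EV- against control, and 1 with the replicate block over all libraries among the 4 groups and for GN, EV+ and EV- against control. The replicate block within EV+ and EV- libraries gave 1 among the 4 groups and for GN against control, and 2 (Irf1 and Irf7) for EV+ and for EV- against control. It changed no other call of a member. With each library left out in turn the counts ranged from 0 to 1 for GN, EV+ and EV- against control and were 0 in the other comparisons. DESeq2, edgeR's quasi-likelihood test, RLE size factors, the pseudocount of 0.1 CPM, the filter, the fit with no intensity trend and the FDR under 0.05 left every count at 0.

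Of 540 log2 differences of members under settings that kept all libraries, 521 kept direction and side of the threshold, 12 passed it and 7 reversed. With the replicate block over all libraries Irf1 was -0.019 for EV+ against GN and -0.023 for EV- against GN, and Irf2 was -0.024 for EV+ against GN. Irf9 for EV- against control was -0.000167 with edgeR's quasi-likelihood test, -0.000178 with its likelihood-ratio test, -0.00366 with DESeq2 and -0.00156 with RLE size factors. Of 540 with a library left out 490 kept both, 5 passed the threshold and 45 reversed, and the cause was not tested. The ranges of differences that reversed were as follows. GN against control gave Irf2 from -0.17 to 0.027, Irf5 from -0.0704 to 0.0611, Irf9 from -0.12 to 0.037, Stat2 from -0.38 to 0.0379, Stat3 from -0.0467 to 0.0564 and Stat5a from -0.0113 to 0.22. EV+ against GN gave Irf1 from -0.0792 to 0.18 and Irf2 from -0.0826 to 0.12. EV- against GN gave Irf1 from -0.0829 to 0.18, Irf2 from -0.13 to 0.0702, Irf7 from -0.10 to 0.30, Irf9 from -0.0318 to 0.12 and Stat5a from -0.10 to 0.13. EV+ against EV- gave Irf1 from -0.0553 to 0.10, Irf5 from -0.00642 to 0.0429, Irf7 from -0.0659 to 0.29, Irf8 from -0.0744 to 0.075, Irf9 from -0.00284 to 0.0772 and Stat3 from -0.0261 to 0.0835. EV+ against control gave Irf9 from -0.0268 to 0.13 and Stat2 from -0.18 to 0.24. EV- against control gave Irf9 from -0.0766 to 0.0802 and Stat2 from -0.25 to 0.16. Of 480 values of the 24 called differences of list genes, 356 kept the call, 124 lost it and 0 reversed. Depth did not limit the members, with at least 1846 reads each, and 2 or 3 libraries a group did limit the precision.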
